A study of Mus musculus with 6 samples.

Results

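The stefin A genes are a cluster of near-identical copies on mouse chromosome 16 that encode small inhibitors of cysteine proteases. The 9 family members Stfa1, Stfa2, Stfa2l1, Stfa3, 2010005H15Rik, Gm5416, Gm5483, BC100530 and BC117090 were taken by symbol from the 26082 symbols of an RNA-seq table, together with their single-copy relative Cstb, so that 10 genes were followed in all. The members were chosen by their FPKM values in the treated and vehicle mice, with the difference between the groups in view, so their values in that comparison are a description without a test. Expression was measured in MLL-AF9 leukemia cells from 6 leukemic mice of the strain C57BL/6J, and both groups carried the retrovirally transduced fusion gene MLL-AF9, which drives acute myeloid leukemia (AML). Of the 6 libraries, 3 (replicates 1, 2 and 3) came from mice given vehicle and the other 3 from mice given DS-5272, an inhibitor of the binding of p53 to MDM2, at 80 mg/kg by mouth, and all cells were collected 24 h later. The cells were isolated from bone marrow with a cell sorter after serial transplantation of the leukemia, the recipients kept their own blood cells, and the age of the mice is not given in the sources used here.

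Stefins are the cystatins that stay inside the cell. They bind cysteine cathepsins such as cathepsins B, H, L and S, the proteases of the lysosome, in a tight and reversible way, and a hairpin with the conserved residues Q-x-V-x-G enters the active site of the protease. Stefin B, the product of Cstb, is made in most tissues, whereas in mice the stefin A genes were multiplied and are known from maturing neutrophils, other myeloid cells and stratified epithelia.

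The 9 genes lay within 299 kb, at chr16:36156811-36455392 of the mouse build GRCm38 in the GENCODE annotation, with 5 genes on the plus strand and 4 on the minus strand. Stfa2l1 was first on the chromosome and Stfa3 last. The coding length was between 291 and 312 bases in all 9 genes, and it was 297 bases for Cstb, which lies elsewhere at chr10:78425669-78427622. The stretch that encodes the hairpin is shown for each distinct version because it is the part of the inhibitor that meets the protease and because it shows how little separates the copies. The 15 bases in capitals encode the Q-x-V-x-G motif, and the bases are from the coding strand, 5′ to 3′, read from the annotated transcripts.
Stfa1: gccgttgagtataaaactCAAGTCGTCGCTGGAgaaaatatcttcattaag
BC100530 and BC117090: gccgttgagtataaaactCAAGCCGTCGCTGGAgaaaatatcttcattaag
Gm5483 and 2010005H15Rik: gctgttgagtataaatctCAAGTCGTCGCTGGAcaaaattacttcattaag
Gm5416: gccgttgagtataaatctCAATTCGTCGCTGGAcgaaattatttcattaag
Stfa3: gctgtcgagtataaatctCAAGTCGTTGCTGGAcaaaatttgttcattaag
Stfa2 and Stfa2l1: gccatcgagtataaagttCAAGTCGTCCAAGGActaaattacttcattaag
Cstb: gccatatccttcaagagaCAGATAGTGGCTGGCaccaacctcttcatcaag

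BC100530 and BC117090 had the same 51 bases in this window, and so did Gm5483 and 2010005H15Rik, and Stfa2 and Stfa2l1. Stfa1 shared its 15 capital bases with Gm5483 and 2010005H15Rik. Over the whole coding sequence the closest pair was Stfa1 and BC100530, with 98.0% identical positions, followed by 96.9% for Gm5483 and 2010005H15Rik, 96.5% for Stfa2 and Stfa2l1 and 95.2% for BC100530 and BC117090. Stfa3 and Gm5416 had no such partner, and their closest relatives were at 81.7% and 89.2%. The median over the 36 pairs of family members was 79.9%, and Cstb was between 52.2% and 62.3% identical to them.

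**Figure D1:**
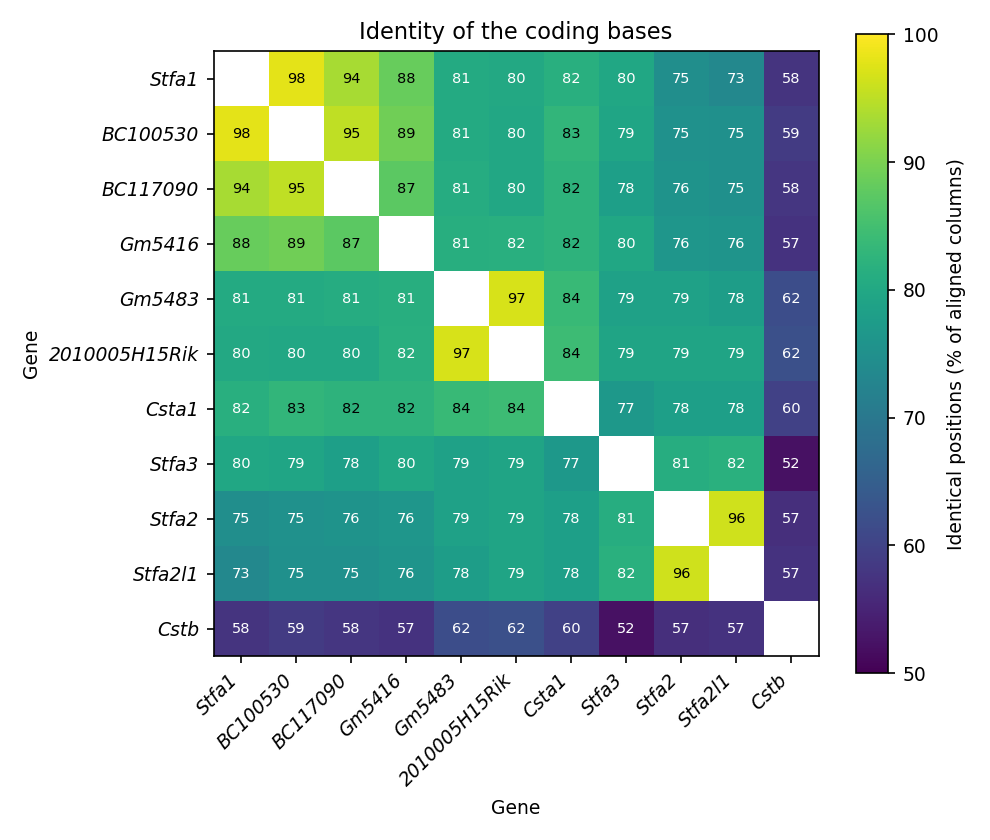
Identity of the coding sequences of the 9 stefin A genes, Csta1 and Cstb, as a percentage of aligned positions, with the genes on both axes and the value of each pair printed in its cell. The near-identical pairs stand out at 95.2% to 98.0%, and Cstb is the most distant from every other gene, at no more than 62.3%.

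Identity of this degree limits what the values of single copies can say. Reads were 100 nucleotides long, and of all windows of that length in the annotated transcript of Stfa1, 43.2% occurred elsewhere in the cluster with no more than 2 mismatches. The share was 45.6% for BC100530, 57.5% for Gm5483, 31.3% for 2010005H15Rik, 30.6% for Stfa2, 40.3% for Stfa2l1 and 50.7% for BC117090. No window of Stfa3, Gm5416 or Cstb had such a second place. Exact copies were fewer, from 0% for Stfa2 and Stfa2l1 to 13.5% for BC117090. How fragments were divided between copies is not stated in the sources used here, so the split within each near-identical pair is uncertain, and the sum over the family is given first. The span of BC100530 from gene start to gene end also overlaps the antisense gene Gm15845, and that of 2010005H15Rik the pseudogene Gm10813. Overlap of their exons was not examined. Whether strand was used in counting is not given in the sources used here.

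The family sum was higher after DS-5272 in every mouse. It was 123, 760 and 1005 FPKM in the vehicle mice numbered 1, 2 and 3, and the treated mice of the same numbers had 2886, 7973 and 12998 FPKM. FPKM counts sequenced fragments per length of transcript and per number of mapped fragments of the library. The lowest DS-5272 value lay above the highest vehicle value, and replicate 1 was the lowest of its group in both groups. The means were 629 ± 455 and 7952 ± 5056 FPKM (SD, n = 3 each), a ratio of 12.6, and between the mice that share a replicate number the sum was 23.5, 10.5 and 12.9 times higher. The difference of the group means of log2(FPKM + 1), a scale on which low genes change by less than their ratio, was 3.87 ± 1.14 (SE). It was 2.93 without vehicle replicate 1 and 4.48 without DS-5272 replicate 1. As a share of all FPKM of the library, the family made up 0.0276%, 0.154% and 0.200% in the vehicle samples and 0.578%, 1.37% and 1.97% in the DS-5272 samples.

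Cstb, the single-copy stefin, was also higher in the treated mice, and by far less. Its levels were 48.9, 53.5 and 56.6 FPKM without the drug (vehicle mice 1, 2 and 3) and 131, 143 and 154 FPKM with it. The groups did not overlap, and the highest sample of a group was no more than 1.18 times the lowest, whereas the family sum spread 8.18-fold among the vehicle mice and 4.50-fold among the DS-5272 mice. The difference was 1.41 ± 0.09 on the log2(FPKM + 1) scale, and the ratios of same-numbered mice were 2.68, 2.66 and 2.72. Divided by Cstb within each library, the family sum was 2.51, 14.2 and 17.7 in the vehicle samples and 22.0, 55.9 and 84.3 in the DS-5272 samples. The ranges of this ratio lay side by side without overlap, with a gap between 17.7 and 22.0, and the log2 difference of the ratio was 2.46.

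**Figure D2:**
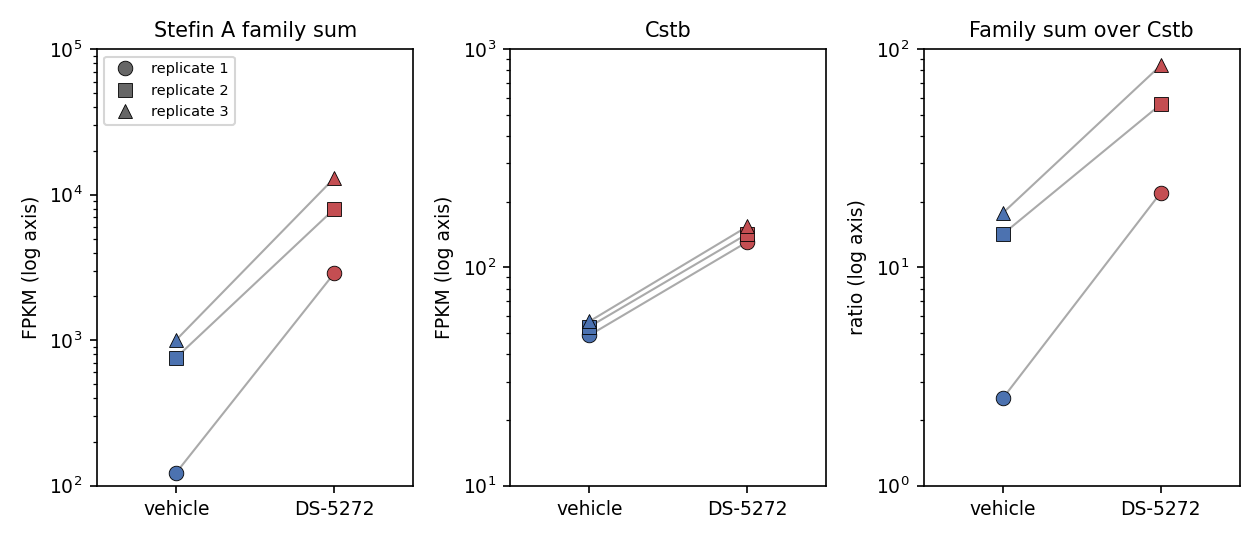
Summed FPKM of the 9 stefin A genes (left), FPKM of Cstb (middle) and their ratio (right) in each mouse, on log axes, with grey lines between mice of the same replicate number. Cstb lies between 131 and 154 in all 3 treated mice, while the family sum runs from 2886 to 12998 in the same mice.

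Among the members, Stfa1 had the highest level in every library. Its level was 74.4, 361 and 486 FPKM with vehicle and 1288, 2805 and 4095 FPKM with DS-5272, where it ranked as the 39th, 9th and 8th most abundant of all genes. Vehicle replicate 1 stood well below the other 2 vehicle samples, and the groups did not overlap. The difference was 3.38 ± 0.97 (SE) on the log2(FPKM + 1) scale.

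BC100530, the copy closest to Stfa1, followed in each of the 6 libraries. It was at 17.2, 167 and 241 FPKM with vehicle and at 605, 1863 and 3107 FPKM with DS-5272. Gm5483 came next, at 16.9, 122 and 151 FPKM with vehicle and 504, 1048 and 1927 FPKM with DS-5272. Their differences were 4.07 ± 1.36 and 3.86 ± 1.13 (SE), and neither gene's groups overlapped. BC100530 and Gm5483 were nearly equal in vehicle replicate 1 and apart in the other libraries.

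Stfa2l1 and Stfa3 stood at the next levels, and their order was not the same in all mice. Stfa2l1 was at 5.26, 70.1 and 77.7 FPKM with vehicle and 158, 934 and 1503 FPKM with DS-5272, a difference of 4.21 ± 1.55 (SE). Stfa3 was at 6.55, 26.6 and 33.7 FPKM with vehicle and 229, 823 and 1437 FPKM with DS-5272, a difference of 5.07 ± 1.04. Stfa3 was the higher of the pair in replicate 1 of both groups and Stfa2l1 in the other 4 libraries.

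The members with low levels in the vehicle mice included those with the largest differences. Stfa2, the near-copy of Stfa2l1, was at 1.11, 7.47 and 7.69 FPKM with vehicle and 40.7, 356 and 659 FPKM with DS-5272, a difference of 5.31 ± 1.38 and the largest of the family at a pseudocount of 1. Gm5416 was at 1.35, 4.74 and 6.55 FPKM with vehicle and 41.8, 97.0 and 186 FPKM with DS-5272, a difference of 4.30 ± 0.80. The groups of both genes were far apart, and replicate 1 was again lowest on each side.

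2010005H15Rik was almost not expressed in the vehicle mice, at 0.172, 1.20 and 1.36 FPKM, and was at 19.1, 45.2 and 82.4 FPKM after DS-5272. Its difference of 4.55 ± 0.68 was 5.69 with a pseudocount of 0.1 in place of 1, where that of Stfa2 was 5.68, so the order of the 2 genes turned. BC117090 was the lowest member in every library, listed at 0, 0.337 and 0.103 FPKM with vehicle and at 0.366, 1.69 and 2.53 FPKM with DS-5272. Its values did not overlap between the groups, but none exceeded 2.53 FPKM, and its mean of 0.838 FPKM kept it out of the fit over all genes, which required a mean of at least 1 FPKM. These 2 genes had a vehicle mean under 1 FPKM, so 2010005H15Rik passed this filter only through the treated group.

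**Figure D3:**
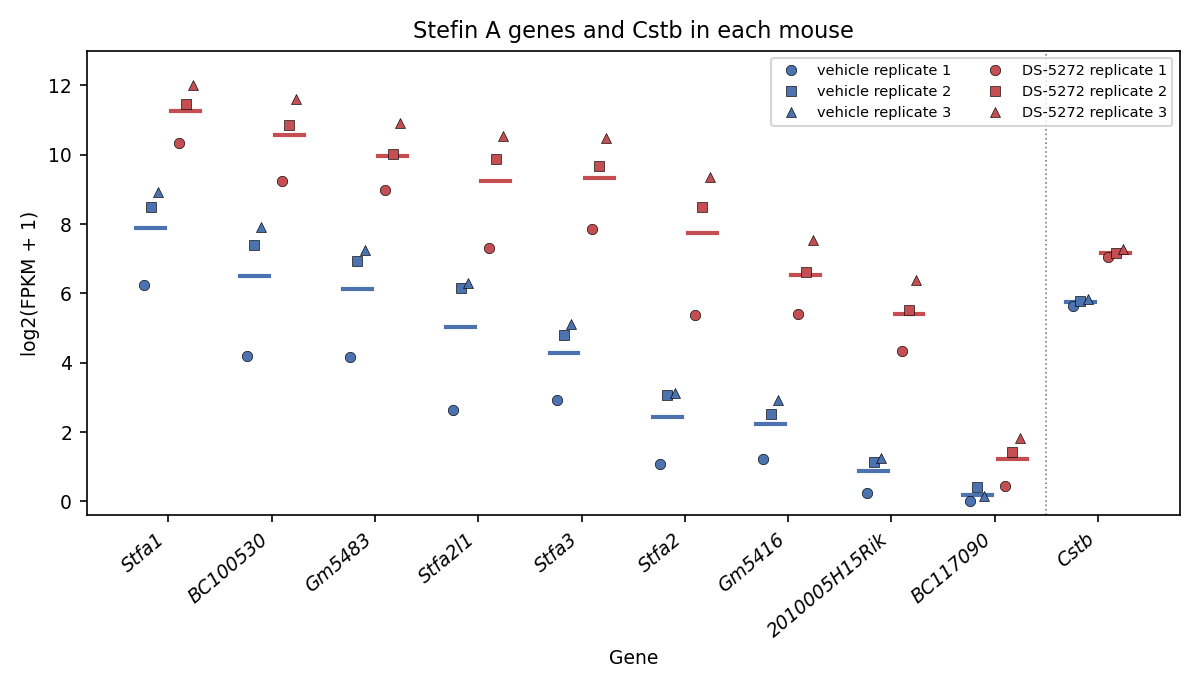
Levels of the 9 stefin A genes and Cstb as log2(FPKM + 1) in each mouse, with vehicle in blue, DS-5272 in red, a symbol for each replicate number and bars at the group means. In every gene from Stfa1 to BC117090 the 3 DS-5272 points lie above the 3 vehicle points, and replicate 1 (circles) is lowest on both sides.

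Across the 8 members that entered the fit the differences ran from 3.38 to 5.31 with a median of 4.26, against a median of 0.04 over all 11130 genes tested. In limma's test over these genes with Benjamini-Hochberg adjustment, 24.2% of genes passed the threshold of 0.05 as higher after DS-5272 and 22% as lower, and in 32.1% every DS-5272 sample lay above every vehicle sample. All 8 members passed as higher and all 8 were without overlap, which is how the family was chosen and says nothing further. Without DS-5272 replicate 2, and likewise without DS-5272 replicate 3, 6 of 8 passed, since Stfa2l1 and BC100530 missed the threshold, and without vehicle replicate 1 Stfa2l1 alone missed it. The FPKM totals differed between libraries, and rescaling each library to a common total shifted the median of all tested genes by -0.24 and lowered the share of upregulated genes among those called from 52.4% to 32.4%. On that scale the median of the 8 members was 4.02.

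In the order of the group means, neighbouring members mostly could not be told apart by their ranges. With vehicle the order was Stfa1, BC100530, Gm5483, Cstb, Stfa2l1, Stfa3, Stfa2, Gm5416, 2010005H15Rik and BC117090, and every neighbouring pair overlapped. With DS-5272 it was Stfa1, BC100530, Gm5483, Stfa2l1, Stfa3, Stfa2, Cstb, Gm5416, 2010005H15Rik and BC117090, and only 2010005H15Rik and BC117090 were apart. Within single libraries the order was firmer, since Stfa1 lay above BC100530, and BC100530 above Gm5483, in all 6. Cstb moved from the fourth place to the seventh.

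The composition of the family also differed between the groups. Stfa1 made up 60.5%, 47.4% and 48.3% of the family sum in vehicle replicates 1, 2 and 3, and 44.6%, 35.2% and 31.5% in DS-5272 replicates 1, 2 and 3. Its share was thus lower in each treated mouse than in any vehicle mouse. Stfa3 had shares of 5.33%, 3.51% and 3.36% with vehicle and 7.94%, 10.3% and 11.1% with DS-5272. Stfa2 had 0.907%, 0.983% and 0.766% with vehicle and 1.41%, 4.46% and 5.07% with DS-5272. Both shares were higher in every treated mouse, as were those of Gm5416 and 2010005H15Rik, whereas the shares of BC100530, Gm5483, Stfa2l1 and BC117090 overlapped between the groups. BC100530 held between 13.97% and 24.0% in all libraries.

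**Figure D4:**
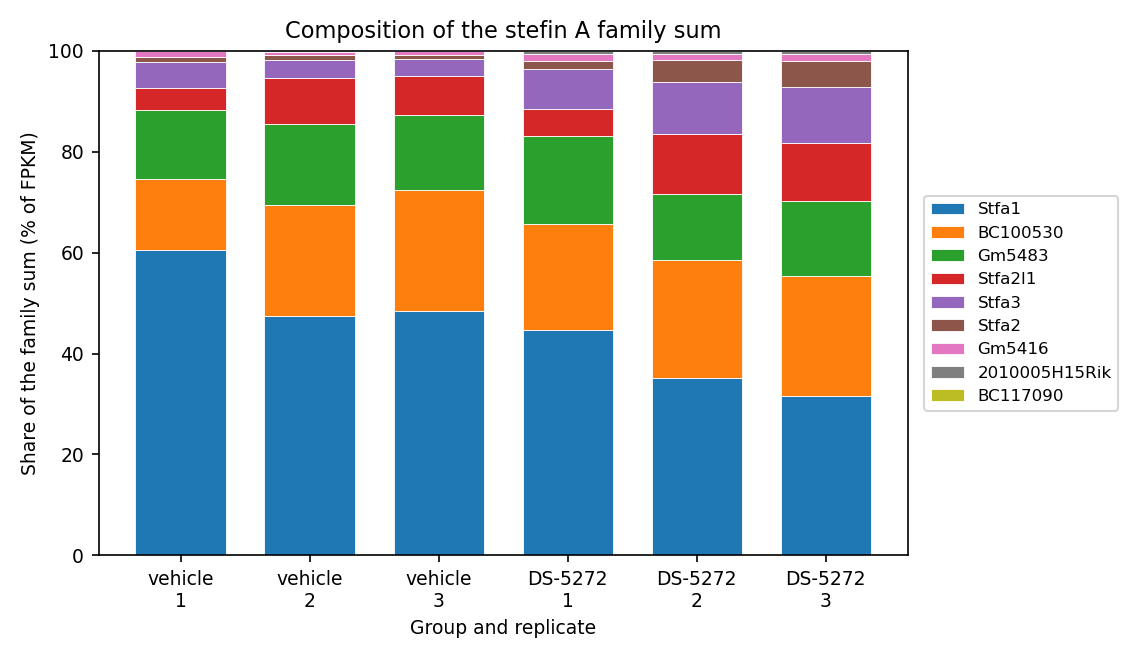
Share of each gene in the summed FPKM of the stefin A family, in percent, for each of the 6 libraries. The Stfa1 segment shrinks from between 47.4% and 60.5% in the vehicle libraries to between 31.5% and 44.6% in the DS-5272 libraries, and the Stfa3 and Stfa2 segments widen.

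The near-identical pairs differed in how their ratio behaved. 2010005H15Rik was at 1.02%, 0.987% and 0.900% of the level of Gm5483 in the vehicle libraries and at 3.79%, 4.31% and 4.28% in the DS-5272 libraries. This ratio was tight within each group, 0.969 ± 0.062% against 4.13 ± 0.29% (SD, n = 3 each), although the levels behind it varied several-fold. Stfa2 was at 21.2%, 10.7% and 9.90% of Stfa2l1 with vehicle and at 25.7%, 38.1% and 43.8% with DS-5272, again without overlap. BC100530 was at 23.1%, 46.3% and 49.7% of Stfa1 with vehicle and at 46.9%, 66.4% and 75.9% with DS-5272, where the groups overlapped. BC117090 stayed at or below 0.202% of BC100530 in every library. Fragments assigned to the wrong copy enter all of these ratios, and their part was not measured.

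Further entries examined beside the family did not share its levels. Csta, an older symbol of Csta1, which lies beside the cluster at chr16:36119946-36131241, was listed at 0 in all 6 libraries. Its coding sequence was between 76.6% and 84.3% identical to those of the members. The entry Gm4758 was at 0.147, 1.07 and 0.823 FPKM with vehicle and 0.195, 1.81 and 1.35 FPKM with DS-5272, and the entry Gm10913 was no higher than 0.637 FPKM in any library. Their groups overlapped.

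Upstream sequences were compared because the members shared one pattern over the mice. RefSeq start sites were found for 8 of the 9 genes, under the newer symbols Csta2 (2010005H15Rik), Csta3 (Gm5416), Cstdc4 (Gm5483) and Cstdc5 (BC100530) where these have changed. The 120 bases before the start are shown for the 5 genes in which they aligned best, with 76.6% to 84.6% identical positions between any 2 of them, from the RefSeq promoter table of the build GRCm38.p6 and written 5′ to 3′ on the strand of the gene. Capitals mark the stretch TTTAAAAC and matches to a half-site of the p53 consensus.
Stfa1 (chr16:36277028-36277147, plus strand): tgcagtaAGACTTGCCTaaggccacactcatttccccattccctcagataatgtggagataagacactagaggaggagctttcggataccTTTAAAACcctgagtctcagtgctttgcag
Stfa2 (chr16:36408364-36408483, minus strand): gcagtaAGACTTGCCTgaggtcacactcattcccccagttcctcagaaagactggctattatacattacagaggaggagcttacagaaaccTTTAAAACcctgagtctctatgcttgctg
Stfa2l1 (chr16:36156691-36156810, plus strand): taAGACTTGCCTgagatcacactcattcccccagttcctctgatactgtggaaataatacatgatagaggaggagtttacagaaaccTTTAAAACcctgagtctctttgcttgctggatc
Stfa3 (chr16:36455393-36455512, minus strand): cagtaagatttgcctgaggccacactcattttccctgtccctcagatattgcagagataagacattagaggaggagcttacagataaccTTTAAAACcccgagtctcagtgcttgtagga
Gm5483 (chr16:36184092-36184211, plus strand): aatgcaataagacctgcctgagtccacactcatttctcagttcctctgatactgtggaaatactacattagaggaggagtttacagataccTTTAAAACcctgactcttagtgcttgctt

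TTTAAAAC began between positions -33 and -29 before the start in these 5 genes. In Gm5416 it began at -77 and in BC100530 at -9, and 2010005H15Rik lacked it. It was present on either strand within 250 bases before the start in 7 of the 8 family promoters and in 1.59% of 32851 promoters, and it was chosen for the search after the sequences had been seen. No family promoter held TATAAA, which 12.4% of all promoters held. The binding motif of PU.1, GAGGAA, a factor of myeloid cells, was found in 6 of 8 family promoters and in 23.3% of all. TTGCNNAA, a core of the motif of the C/EBP factors of granulocytes, was found in 3 of 8 and in 9.56% of all. A p53 half-site matched in 6 of 8 family promoters and in 7.13% of all, and the 3 C/EBP matches overlapped half-site matches. The same window of Csta1, which was listed at 0 in all libraries, held 1 half-site and 2 GAGGAA matches. Both strands were searched for each motif. The copies descend from each other and so do their promoters, and a match is a description of the letters, not a measured site.

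The genes whose profile over the 6 libraries came closest to that of the family sum were S100a8, S100a9, Dusp6, Mmp9 and Ccl2, by the root mean square difference between centred log2(FPKM + 1) profiles. S100a8, a subunit of the calprotectin of neutrophils, differed from the family by only 0.138. It was at 75.5, 396 and 541 FPKM with vehicle and 1542, 3817 and 5953 FPKM with DS-5272. The ratio of the family sum to S100a8 stayed between 1.63 and 2.18 in the 6 libraries, against a ratio to Cstb that ran from 2.51 to 84.3. S100a9, the other calprotectin subunit, was at 34.9, 325 and 487 FPKM with vehicle and 1109, 3892 and 6366 FPKM with DS-5272 (0.271). Mmp9, a gelatinase of neutrophil granules, was at 9.93, 41.0 and 41.2 FPKM and at 236, 597 and 1097 FPKM (0.390). Dusp6, a phosphatase of ERK, and Ccl2, a chemokine for monocytes, had differences of 0.333 and 0.425. These genes were picked for their likeness, so no test is given for them.

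Cysteine cathepsins, the proteases that stefins bind, were upregulated as well. All 7 cysteine cathepsins with a mean of at least 1 FPKM rose after DS-5272 (limma, adjusted p between 0.00061 and 0.0193), against 24.2% of all tested genes. Their median difference was 1.47 against 0.04 over all genes. The other 3 of the 10 listed, Ctsf, Ctsk and Ctsw, were not tested because of their low levels. Cathepsin S (Ctss), the protease that trims the invariant chain of MHC class II, was at 52.1, 36.2 and 32.4 FPKM with vehicle and 360, 353 and 460 FPKM with DS-5272, a rise of 3.27 ± 0.20 (SE). Cathepsin C (Ctsc), which activates the serine proteases of granulocytes, was at 54.1, 47.9 and 39.5 FPKM with vehicle and 433, 320 and 296 FPKM with DS-5272, a rise of 2.86 ± 0.18. The groups of both were far apart, and neither had its lowest value in replicate 1 of both groups, as the stefin A genes did. Ctsh rose by 1.96 ± 0.28, Ctsl by 1.47 ± 0.38, Ctsb by 1.41 ± 0.14, Ctso by 0.82 ± 0.14 and Ctsz by 0.57 ± 0.15. Ctsl missed the threshold without DS-5272 replicate 2 (1.45) or 3 (1.29), and Ctsz without vehicle replicate 1 (0.58), 2 (0.58) or 3 (0.54), at a common upper quartile (0.46) and at a common total (0.30).

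Of 6 cathepsins of other classes and legumain, which are not the usual targets of stefins, 5 rose and 1 fell. Over all tested genes 24.2% rose and 22% fell. Legumain (Lgmn) rose by 2.76 ± 0.59, cathepsin D (Ctsd) by 1.51 ± 0.15, Ctse by 1.24 ± 0.17, Ctsa by 0.80 ± 0.10 and Napsa by 0.47 ± 0.12. Cathepsin G (Ctsg), a serine protease of primary granules, fell by 0.94 on the log2 scale, from 1593, 1447 and 1436 FPKM to 1138, 788 and 523 FPKM (adjusted p = 0.0307, limma). This fall missed the threshold without any 1 of the vehicle replicates, without DS-5272 replicate 2 or with no filter. Ctsa and Napsa were named after their values were seen, and Napsa missed the threshold without vehicle replicate 1 (0.41) or 3 (0.44) and at a common total (0.20).

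The other genes of the cystatin superfamily gave mixed results, and the median difference of those tested was 0.86 against 0.04 over all genes. Of the 17 listed, 10 were listed at 0 in all libraries and 4 had a mean of at least 1 FPKM. Cystatin C (Cst3), the main secreted cystatin, was at 524, 582 and 580 FPKM with vehicle and 704, 682 and 721 FPKM with DS-5272, with a difference of 0.32 ± 0.11 (adjusted p = 0.0528, limma). Cystatin F (Cst7), which is made in blood cells, fell by 0.36, from 64.4, 64.3 and 59.7 FPKM to 44.5, 49.5 and 51.9 FPKM (adjusted p = 0.0228), and missed the threshold without vehicle replicate 1, 2 or 3. The cathelin-related Ngp and Camp, of secondary granules, had differences of 2.21 ± 1.23 and 1.40 ± 1.16. In limma's fit 0 of the 4 passed as higher, 1 of them did so at an unadjusted p under 0.05, and 3 did with the replicate number as a block, at adjusted p values of 0.0169 for Cst3, 0.0024 for Ngp and 0.0199 for Camp. The sample labels number the mice but do not pair them, and the block was taken from these same expression values.

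**Figure D5:**
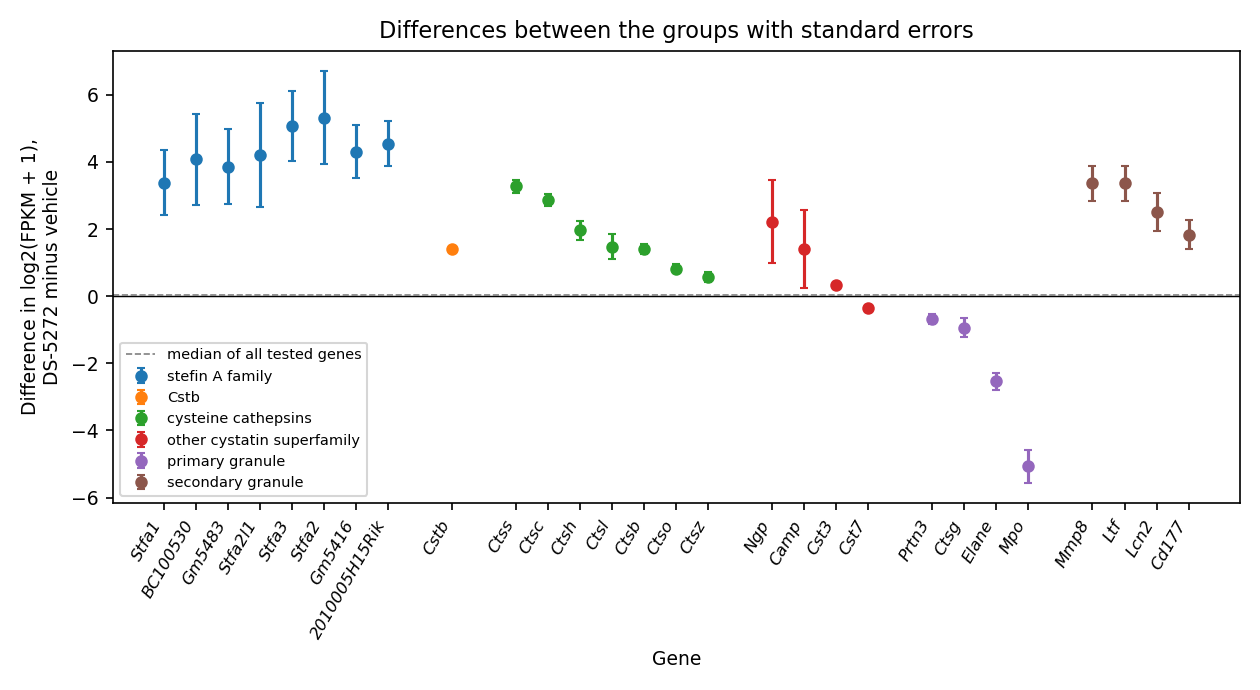
Difference in log2(FPKM + 1), DS-5272 minus vehicle, with standard errors, for the 8 tested stefin A genes, Cstb and named genes of 4 lists. The stefin A genes lie between 3.38 and 5.31, the cysteine cathepsins between 0.57 and 3.27, and the primary granule genes below 0. Errors of the stefin A genes and Cstb come from the values of each gene alone and those of the lists from limma's fit, so their widths are not directly comparable.

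Inhibitors of serine proteases were examined beside the stefins. Of 13 listed serpin B and WAP-domain genes, 8 were tested and 5 rose, against 24.2% of all tested genes, with a median of 1.14. Gm11428 (Wfdc17) rose by 1.94 ± 0.21, 1100001G20Rik (Wfdc21) by 2.17 ± 0.33, Serpinb8 by 1.18 ± 0.23 and Slpi, the secretory inhibitor of neutrophil elastase, by 1.09 ± 0.14, the last named after its values were seen. Serpinb8 had a vehicle mean of 0.228 FPKM and passed the filter only through the treated group, so its call carries no weight, and it fell under the filter at a common total or upper quartile. Serpinb10-ps, the older entry of Serpinb10, rose by 2.29 ± 0.72, and this call was lost without any 1 vehicle replicate, without DS-5272 replicate 2 or 3 and with no filter.

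Genes that flank the cluster on chromosome 16 were examined next. Of 17 listed neighbours, 10 were tested, 5 rose and 0 fell in limma's fit, also at an unadjusted p under 0.05, and the median difference was 0.51. Among all tested genes 24.2% rose and 22% fell. Parp14, an ADP-ribosyltransferase of the interferon response, rose from 13.7, 7.90 and 6.87 FPKM to 44.4, 22.9 and 38.1 FPKM, by 1.79 ± 0.31. Hcls1, an actin regulator of blood cells, rose by 1.13 ± 0.18, Fam162a by 1.12 ± 0.14, Dtx3l by 0.99 ± 0.23 and its partner Parp9 by 0.91 ± 0.26, the last named after its values were seen. Dtx3l and Parp9 missed the threshold without vehicle replicate 2 (0.90 and 0.83) or 3 (0.88 and 0.80) and at a common total (0.73 and 0.65), and Parp9 also without DS-5272 replicate 1 or 3, at a common upper quartile (0.80) and with no filter. Cd86, a costimulatory ligand of antigen-presenting cells named after its values were seen, was at 0.209, 0.158 and 0.123 FPKM with vehicle and 2.23, 1.20 and 1.43 FPKM with DS-5272, without overlap, and its mean over the libraries kept it out of the fit. Of the tested genes, 32.1% had every DS-5272 sample above every vehicle sample.

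Lists of neutrophil maturation were described beside the stefin A genes, and no difference between the lists was tested. In the list of primary granule genes, which promyelocytes make first, 4 of 5 tested fell, against 22% of all tested genes. In that list 0 rose in limma's fit, also at an unadjusted p under 0.05. Myeloperoxidase (Mpo) was at 218, 140 and 325 FPKM with vehicle and 3.77, 12.2 and 3.25 FPKM with DS-5272 and fell by 5.07 on the log2 scale, and neutrophil elastase (Elane) fell by 2.54. Prtn3 fell by 0.67 and missed the threshold without vehicle replicate 2 or 3. The secondary granule list had 4 of 10 genes that rose, against 24.2% of all tested genes. These were Mmp8 (3.36 ± 0.53), Ltf (3.36 ± 0.51), Lcn2 (2.51 ± 0.57) and Cd177 (1.83 ± 0.43). With the replicate number as a block all 10 passed as higher, as did 3367 of the 11130 genes tested. Chi3l3, the most abundant gene of that list, was at 763, 2388 and 2831 FPKM with vehicle and 1816, 4239 and 5884 FPKM with DS-5272, and its groups overlapped.

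Of the genes of mature neutrophils, 11 of 11 tested rose, with a median of 3.0, against 24.2% of all tested genes. In this list 1 of them, Ly6g, had a vehicle mean of 0.207 FPKM and passed the filter only through the treated group, so its call carries no weight. Their summed level was 508, 1110 and 1419 FPKM with vehicle and 3634, 9081 and 14594 FPKM with DS-5272, so replicate 1 was lowest on both sides, as for the stefin A genes. Fpr1 rose by 3.90 ± 0.21, but the ratio of the family sum to Fpr1 ran from 55.9 to 446 over the 6 libraries, since Fpr1 was nearly level among the vehicle mice at 2.2, 2.42 and 2.25 FPKM. Among 12 regulators of granulocytes and monocytes, 5 rose and 2 fell, against 24.2% and 22% of all tested genes, and 6 rose with the replicate block. Csf1r rose by 1.91, Irf8 by 1.24, Cebpb by 0.94, Cebpd by 0.86 and Sfpi1, which encodes PU.1, by 0.75, while Kit fell by 1.96 and Gfi1 by 0.90. Cebpa and Cebpe, also C/EBP genes, did not pass. Cebpa was at 29.7, 34.0 and 29.2 FPKM with vehicle and 22.9, 19.6 and 28.7 FPKM with DS-5272, a difference of -0.38 without overlap. It passed as lower at a common upper quartile (-0.49) or total (-0.64) and without DS-5272 replicate 3 (-0.52). Cebpe differed by 0.06, and its groups overlapped. The call of Cebpb was lost with no filter and without any 1 of 5 libraries, all but DS-5272 replicate 1. Cebpa, Cebpd, Cebpe, Sfpi1 and Gfi1 were named after their values were seen.

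Of the 10 listed leukemia genes 6 had entries of their own and were tested, while Hoxa5, Hoxa7, Hoxa9 and Hoxa10 lie in joined entries and were not analysed here. Meis1 was between 66.1 and 110 FPKM and Myb between 156 and 226 FPKM over the 6 libraries. Of these 6, Itgam (2.1), Mef2c (1.31) and Ptprc (1.18) rose and 0 fell in limma's fit, also unadjusted, while Myb passed as lower with the replicate block (adjusted p = 0.0369). Over all tested genes 24.2% rose and 22% fell. Mef2c was at only 0.295, 0.115 and 0.0984 FPKM in the vehicle mice and passed the filter only through the treated group, so its call carries no weight. Genes of other cells moved with the treatment as well. Of 10 macrophage genes 5 rose, against 24.2% of all tested genes, or 7 with the replicate block. Their summed level was 63.6, 86.1 and 117 FPKM with vehicle and 467, 204 and 266 FPKM with DS-5272. Siglec1 rose by 3.38, C1qb by 2.99, C1qc by 2.90, C1qa by 2.52 and Emr1 by 2.05, the last named after its values were seen. C1qa missed the threshold without vehicle replicate 1 or 2. The macrophage sum was highest in DS-5272 replicate 1, the treated mouse with the lowest stefin A sum.

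Erythroid genes likewise summed to 2.48 to 4.65 FPKM with vehicle and to 146, 27.4 and 12.7 FPKM with DS-5272. Of 3 tested, 2 passed as higher, Hba-a1 by 3.31 and Hba-a2 by 3.30, against 24.2% of all tested genes. Hba-a2 had a vehicle mean of 0.564 FPKM and passed the filter only through the treated group, so its call carries no weight. Both missed the threshold without vehicle replicate 2, and Hba-a1 also without vehicle replicate 3. Of the keratinocyte genes, relevant because stefin A is abundant in epidermis, 5 of 9, including Krt5 and Krt14, were listed at 0 in all libraries, and only Ivl was tested, at 3.54 to 5.08 FPKM with vehicle and 7.77 to 9.16 FPKM with DS-5272 (a rise of 0.86). Of the stroma and endothelium genes 1 of 3 tested rose, Pecam1 by 1.19, against 24.2% of all tested genes. The call was lost without vehicle replicate 2 or 3 and without DS-5272 replicate 1, with no filter, and at a common upper quartile or total. With the replicate block 2 of the 3 passed. T-cell, B-cell and NK-cell genes summed to at most 6.70, 5.79 and 4.0 FPKM in any library, and the 2 tested did not pass, also unadjusted. The T-cell sum was 3.08 to 3.24 FPKM with vehicle and 4.11 to 6.70 FPKM with DS-5272. NK-cell genes summed to 0.583 to 1.39 FPKM with vehicle and 2.34 to 4.0 FPKM with DS-5272, and the B-cell sums overlapped. Of the mast cell, basophil and eosinophil genes Mcpt8 fell by 1.86 and 0 rose among 3 tested, against 22% and 24.2% of all tested genes. The part of the other cell types in the stefin A values was not tested. These are bulk samples, so a larger share of cells that express the stefin A genes and more of their RNA per cell cannot be told apart.

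The table gives no read totals. Relative to vehicle replicate 1, the depth read from the steps between low FPKM values was 0.808 and 0.885 in the other vehicle samples and 0.746, 0.652 and 0.539 in the DS-5272 samples, so the treated libraries, in which the stefin A genes were high, were also the shallower ones. The mice of a group are separate animals. For single values, the smallest p that an exact permutation test allows with 3 mice per group is 0.1.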

How the data were processed

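RNA from sorted MLL-AF9 leukemia cells of 6 mice, 3 per group, was sequenced from both ends by the authors with strand-specific libraries. Per the submitters' processing notes and the paper's methods, the authors trimmed the reads with cutadapt 1.8.1, aligned them to GRCm38 reference transcripts with TopHat2 2.1.1 and deposited FPKM values per gene from Cufflinks 2.2.1, which are scaled to transcript length and mapped fragments and are not counts. The deposited table has 26632 lines; 435 symbols on several lines were summed. No line joined a member with another gene. The members and all 18 gene lists were chosen with earlier results of these data known.

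Groups were compared with limma 3.58.1 in R 4.3.3 (lmFit and eBayes with trend, two-sided, no covariate) on log2(FPKM + 1) for 11130 genes whose mean over the 6 samples reached 1 FPKM, with Benjamini-Hochberg adjustment and a threshold of 0.05, after tests on simulated data. Differences of members, Cstb and the family sum are differences of group means, with standard errors from the values of each gene alone and no test. Standard errors of the listed genes come from limma's fit. Of 190 listed genes, 172 matched by symbol and 8 by an older symbol, and those in joined entries were left out. Named were all members, up to 4 genes per list with the largest change past the threshold, every tested cysteine cathepsin and the 5 closest profiles. Cst3, Cst7, Ngp, Camp, Chi3l3 and Ctsg were added after their values were seen. Same-numbered mice deviated together (correlations 0.66, 0.21 and 0.43, against -0.58 to 0.34 for other pairs, with vehicle 2 closer to DS-5272 3 than to DS-5272 2), so replicate numbers were treated as pairs in a blocked alternative. The labels state no pairing, so the calls of the blocked fit rest on a pairing read from the same data. Sequences came from GENCODE and RefSeq, with Python 3.11.15, biopython 1.88, numpy 2.4.6, pandas 2.3.3 and matplotlib 3.10.9. The pseudocount (0.1), the filter (none, or 5 FPKM), the scaling (upper quartile, total), the trend, the block and each sample in turn were varied.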

Additional observations from a re-analysis of the deposited data

How the results depend on the processing

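The family sum and its ratio to Cstb kept their direction under every alternative, and the log2 differences without 1 sample ran from 2.93 to 4.48 for the sum, from 1.35 to 1.47 for Cstb and from 1.58 to 3.01 for the ratio. At a common total (TPM) Cstb differed by 1.15. A pseudocount of 0.1 gave 5.69 for 2010005H15Rik and 2.65 for BC117090. All 8 tested members passed under the alternatives apart from leaving out a sample (6 to 8) and from no filter, where 7 of 9 passed. The members were chosen with the difference between the groups in view, so these counts only describe the settings and are no support. Over all genes, 2697 were upregulated and 2451 downregulated, against 1709 and 3565 at a common total and 2313 and 2921 at a common upper quartile. Without 1 sample, 1623 to 2934 were upregulated and 1389 to 2432 downregulated. Of the chromosome 16 neighbours 3 rose at a common total and 3 to 5 without 1 sample. Of the other cystatins 1 rose with no filter, with a mean of at least 5 FPKM and with eBayes without trend, and 3 with the replicate block. The secondary granule list had 10 genes upregulated with the replicate block, and 4 to 5 without 1 sample. The cysteine cathepsins were upregulated in 6 to 8 cases under all alternatives. Among 61 named list genes, which leave out Cebpa and Cebpe, 55 of 787 alternatives lost a call, 6 gained one and 0 turned the direction. Apart from the calls given in the report, the block changed no other call among them. The causes were not tested. The copies share sequence and the depth of each value is unknown, which limits single members most.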
